A study of Mus musculus with 24 samples.

Results

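The genes described are 10, of the 22911 with a named probe, that mark the granule neurons of the mouse cerebellum. They were followed through every probe whose transcript accession maps to them: 16 probes of the 56605 on the array. They are the transcription factors Neurod1, Neurod2, Zic1, Zic2, Pax6, Etv1 and Barhl1, and the secreted or surface proteins Cbln1, Cbln3 and Fat2. Pax6 was read by 4 probes, Zic2, Barhl1 and Cbln3 by a pair each, and the other genes by 1 probe. All 16 probes passed the filter on dim probes, and 15 of them were well above background on all 24 arrays. The exception was the Pax6 probe A_52_P469306, which was above background on 21 arrays.

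Granule neurons are the small excitatory neurons of the cerebellar cortex. Their precursors divide in the external layer of the young cerebellum, leave the cell cycle, migrate inward and send out parallel fibres that contact Purkinje cells. Pax6, Zic1, Zic2 and Barhl1 are known from the granule lineage from its precursors onward. Neurod1 and Neurod2 act as the cells differentiate and mature, and Etv1 switches on mature genes in response to activity. Cbln1 is released from parallel fibres and holds their synapses on Purkinje cells together, while Cbln3 is a partner of Cbln1 that needs it to leave the cell. Fat2 is a large cadherin of the parallel fibres.

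Total RNA of whole cerebellum from C57BL/6 mice, taken at day 28 after birth, was measured on 24 single-colour arrays in 12 groups of 2. Controls carried floxed Derlin-1 or floxed Derlin-2 alleles, and knockouts (KO) of each line also carried a Cre recombinase under the nestin promoter, which is active in neural progenitors of the whole central nervous system, so that neurons and glia of all brain regions could lose the gene. Both Derlins sit in the membrane of the endoplasmic reticulum and help to clear misfolded proteins from it. 4-phenylbutyrate (4PBA), a chemical chaperone, was injected into the abdomen at 200 mg/kg each day from day 14 to day 28, and vehicle groups received water. The Derlin-1 line was measured in a series with numbered replicates (control and KO, with vehicle or 4PBA) and again in a series with lettered replicates. The lettered arrays without 4PBA name no vehicle, so vehicle and lettered arrays together are called arrays without 4PBA. The Derlin-2 line was measured once, with vehicle or 4PBA. Nothing states that replicates came from separate mice, so p-values cover only the spread between these samples.

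Levels are log2 intensities minus the 75th percentile of the same array, so a level of 1 lies 1 log2 unit above that percentile. A level is compared only between arrays for the same probe, never between probes. A probe was called where the limma test fitted over all probes gave a Benjamini-Hochberg adjusted p under 0.05. In RNA of a whole cerebellum, fewer granule neurons and less RNA per granule neuron cannot be told apart.

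A pair of members, Neurod1 and Cbln3, fell in the Derlin-1 knockout, and the start regions of these genes are printed for that reason. Each line gives the 250 bases before the start of the gene in RefSeq (build GRCm38.p6), 5′ to 3′ on the strand of the gene, with the E-box, the site CANNTG that factors of the Neurod family and other basic helix-loop-helix proteins bind, in capitals. The Neurod1 window is chr2:79456637-79456886 and the Cbln3 window chr14:55884257-55884506, both on the minus strand.
Neurod1: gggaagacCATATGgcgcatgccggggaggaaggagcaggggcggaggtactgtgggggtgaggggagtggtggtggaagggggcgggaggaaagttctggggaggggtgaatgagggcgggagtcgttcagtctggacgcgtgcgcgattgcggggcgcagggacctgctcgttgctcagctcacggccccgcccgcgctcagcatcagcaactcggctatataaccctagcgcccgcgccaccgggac
Cbln3: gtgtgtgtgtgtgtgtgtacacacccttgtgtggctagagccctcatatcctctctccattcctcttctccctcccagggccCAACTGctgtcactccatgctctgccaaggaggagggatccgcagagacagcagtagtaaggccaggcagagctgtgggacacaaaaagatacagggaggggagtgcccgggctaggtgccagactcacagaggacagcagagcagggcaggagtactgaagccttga
The Neurod1 window held 1 E-box, CATATG, which began 242 bases before the start, and the Cbln3 window held 1, CAACTG, which began 168 bases before it. G and C made up 67.6% of the Neurod1 window and 57.6% of the Cbln3 window. CANNTG, which reads the same on both strands, stood in 66.2% of the 32851 windows of this length in the RefSeq table and in 9 of the 11 windows of the members, so its presence sets neither gene apart. The narrower form CAGATG, searched on both strands, stood in 14.4% of all windows and in 2 of the 11, those of Neurod2 and of 1 start of Etv1, and in neither printed window. Of the 10 genes, 8 had a window in the table; Zic2 and Cbln1 had none.

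Each series lay on a slide of its own, with the numbered Derlin-1 series on slide 1, the Derlin-2 line on slide 2 and the lettered Derlin-1 series, scanned on another day, on slide 3. Controls lay in columns 1 and 2 and knockouts in columns 3 and 4 of every slide, so position and genotype cannot be told apart within a slide. Treatment was tied to the rows in the same manner: on each slide row 2 held the 4PBA groups and row 1 the remaining groups. An effect of 4PBA can therefore not be separated from a difference between rows. The share of spots well above background was 57.7% to 68.4% an array, the 75th percentile of intensity ran from 889.7 to 1169, and no spot was saturated. A pair of arrays, called doubted here, each went against its label at 1 Derlin gene. The Derl2 probe A_51_P498831 read 1.72 on the array with the label Derlin-2 KO vehicle 1, above all 4 Derlin-2 controls (1.40 to 1.58), while the other 3 Derlin-2 knockout arrays read 0.48, 0.18 and 0.24. Derl3, a Derlin paralog that was high on the other Derlin-1 knockout arrays, read -2.27 on the array with the label Derlin-1 KO 4PBA b, against -2.54 and -2.18 in its slide's 4PBA controls and 0.17 on the array with the label Derlin-1 KO 4PBA a. On the array with the label Derlin-2 KO vehicle 1 Derl3 instead went with the label. It read -1.85 there, against -3.03 to -2.75 in the 4 Derlin-2 controls. The other Derlin-2 knockout arrays read -0.61, -1.93 and -1.96, so the genotype of the doubted Derlin-2 array is not settled. The Derl1 probe A_51_P504522 did not separate the Derlin-1 genotypes (0.89 and 0.70 in numbered vehicle knockouts, 0.89 and 0.94 in their controls; 0.14 and 0.84 in lettered knockouts a and b, 1.22 and 0.84 in their controls), and whether it lies in the deleted part is not given in the sources used here. Where leaving out both doubted arrays moved a knockout or 4PBA effect printed here by over 1.5 times, its value without them is given too; levels, orders and correlations use all 24 arrays.

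Neurod1 and 1 of the Cbln3 probes fell in the Derlin-1 knockout without 4PBA, and no member probe rose. Cbln1 and Zic1 pointed the same way in both series without passing the test. Averaged over both series, Neurod2, Zic2, Barhl1 and the 3 brighter Pax6 probes differed by at most 0.15 on the log2 scale. At Zic2 and Neurod2 the series went in opposite directions, so the average hides larger changes within a series. Of the 16 probes 2 were called, both lower, against 5.09% of all 38110 probes tested (2.55% lower and 2.53% higher). At an unadjusted p under 0.05 there were 6 lower and 1 higher, against 20.3% of all probes in either direction. The median log2 change over the 16 probes was -0.10, with 12 below 0, beside 0.02 and 47.28% below 0 over all probes. Control and knockout arrays did not overlap in either series for 6 probes with the knockout lower, a pattern shown by 9.4% of all probes, and for 1 with the knockout higher, shown by 9.47%. The 6 were Neurod1, Zic1, Cbln1, both Cbln3 probes and Fat2. Microglial markers moved with this comparison: 8 of 10 rose, with a median log2 change of 1.24, and their summed linear level was 32.56 to 37.5 on the 4 knockout arrays without 4PBA against 15.51 to 20.22 on their controls. The part of that difference in the levels of the granule genes was not tested.

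Neurod1, a basic helix-loop-helix factor that granule neurons need to differentiate and survive, was read by A_55_P2908538. In the numbered series its level was 6.04 and 6.10 in vehicle controls and 5.61 and 5.39 in vehicle knockouts. In the lettered series it was 5.14 and 5.06 in controls and 4.20 and 4.44 in knockouts. All 4 knockout arrays lay below all controls of their own slide. The log2 change was -0.58 on slide 1, -0.78 on slide 3 and -0.68 ± 0.12 (SE) over both, a level 1.60-fold lower (adjusted p = 0.00784, limma). With each series tested alone the adjusted p was 0.245 for the numbered arrays and 0.0506 for the lettered ones. Neurod1 kept its call in each fit that left out 1 array, with changes from -0.74 to -0.62.

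**Figure D1:**
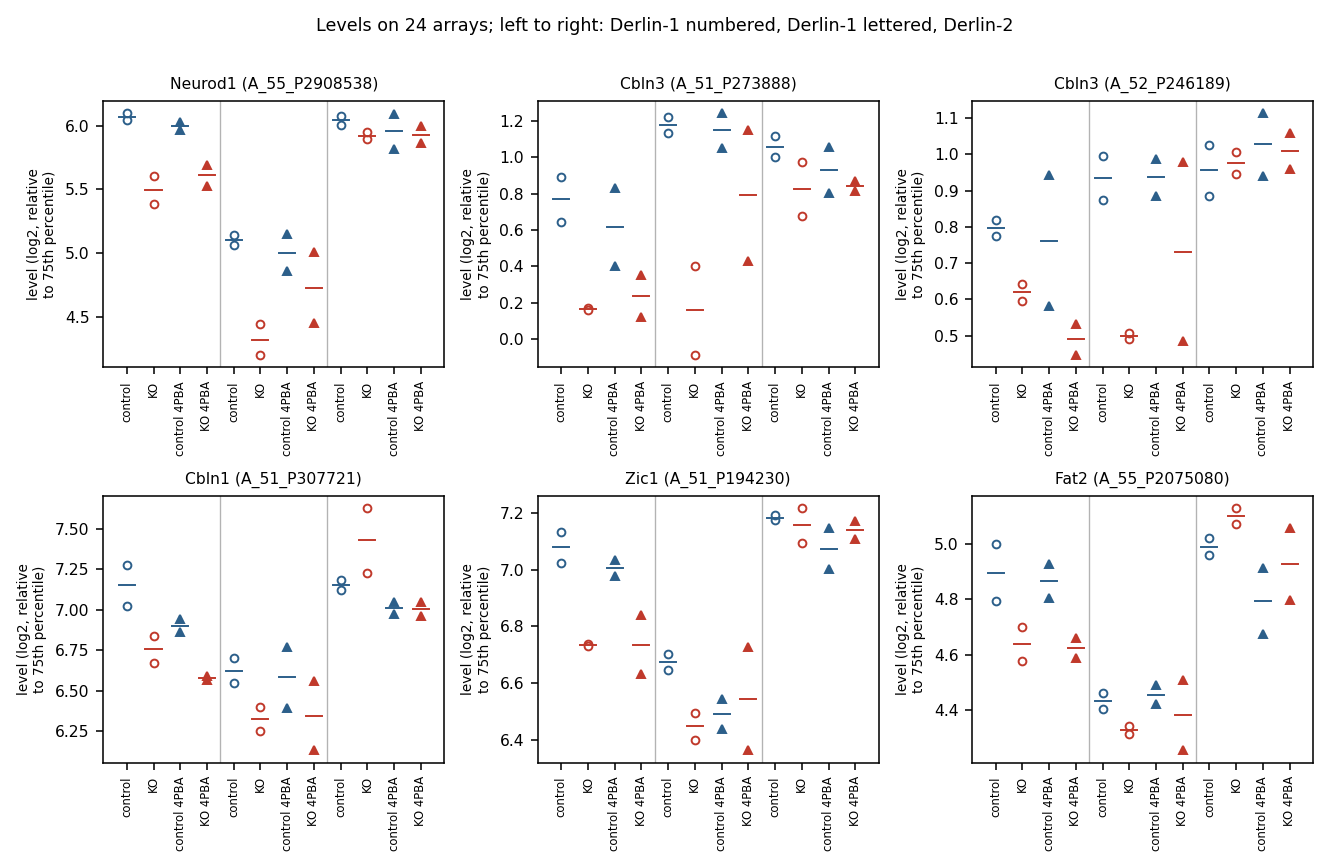
Level of 6 probes (log2 intensity minus the array's 75th percentile, vertical axes with their own scales) on each of the 24 arrays; blue marks controls, red knockouts, open circles arrays without 4PBA, filled triangles arrays with 4PBA and bars the mean of 2 arrays. Neurod1 lies at 5.39 and 5.61 in the numbered vehicle knockouts below 6.04 and 6.10 in their controls, and at 5.89 and 5.95 in the Derlin-2 vehicle knockouts.

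Cbln3, a cerebellin made by granule neurons alone among cerebellar cells, gave the largest fall among the 16 probes, but its probes differed. The probe A_51_P273888 read 0.89 and 0.64 in numbered vehicle controls and 0.17 and 0.16 in their knockouts. In the lettered series it read 1.22 and 1.13 in controls and -0.09 and 0.40 in knockouts. The groups did not overlap on either slide, and the 2 lettered knockouts lay further apart than any other pair of this probe without 4PBA. The log2 change was -0.81 ± 0.16 (SE), a level 1.75-fold lower (adjusted p = 0.0128, limma). Without the array with the label Derlin-1 KO a of the lettered series the change was -0.69 and the adjusted p 0.0694, so this call rested on that array, which also had the lowest Derl1 level of the 24 (0.14). The call also went in a fit of the 2 Derlin-1 slides alone (adjusted p = 0.0649) and in each series alone (0.369 numbered, 0.0555 lettered). The other Cbln3 probe, A_52_P246189, read 0.77 and 0.82 in numbered controls, 0.60 and 0.64 in numbered knockouts, 0.99 and 0.87 in lettered controls and 0.49 and 0.51 in lettered knockouts. It again separated the genotypes on both slides, at a smaller log2 change of -0.31 ± 0.10 (SE) that missed the threshold (adjusted p = 0.104, limma). Over the 24 arrays, each level taken relative to the mean of its slide, the Cbln3 probes correlated at 0.87.

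Cbln1, the cerebellin that holds parallel fibre synapses together, was read by A_51_P307721. Its level was 7.03 and 7.28 in numbered vehicle controls, 6.67 and 6.84 in their knockouts, 6.70 and 6.55 in lettered controls and 6.40 and 6.25 in lettered knockouts. The knockouts lay below the controls on both slides. The log2 change of -0.35 ± 0.12 (SE) was not called (adjusted p = 0.104, limma); it passed in 1 of 22 alternative fits, that without both doubted arrays, which changes only the estimate of the spread here (adjusted p = 0.0485). Under quantile normalization the change of Cbln1 shrank to -0.19, and over the 22 fits the adjusted p ran up to 0.433. Fat2, the parallel fibre cadherin (A_55_P2075080), read 5.0 and 4.79 in numbered controls, 4.70 and 4.58 in numbered knockouts, 4.41 and 4.46 in lettered controls and 4.35 and 4.32 in lettered knockouts. The gap between the lowest control and the highest knockout was small on both slides, and the log2 change of -0.18 ± 0.08 (SE) was not called (adjusted p = 0.245, limma) and was -0.09 under quantile normalization.

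Zic1, a zinc finger factor of the granule lineage (A_51_P194230), was the closest to the threshold among the members that missed it on the low side. It read 7.13 and 7.02 in numbered controls, 6.74 and 6.73 in numbered knockouts, 6.70 and 6.65 in lettered controls and 6.50 and 6.40 in lettered knockouts. The genotypes did not overlap on either slide, and the log2 change was -0.28 ± 0.08 (SE) with an adjusted p of 0.0597 (limma). It passed in 4 of 22 alternative fits, at an adjusted p of 0.0398 over probes above background on all arrays, 0.0324 with 1 probe per gene, 0.0306 with an intensity trend in the variance and 0.0292 without both doubted arrays. In the other 18 it was not called: the adjusted p was 0.0709 with the replicate block, and under quantile normalization the change shrank to -0.13 (adjusted p = 0.492).

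Zic2, a relative of Zic1, was not called. The Zic2 probe A_51_P364592 read 0.72 and 0.77 in numbered controls against 0.57 and 0.63 in knockouts, but 0.16 and 0.46 in lettered controls against 0.76 and 0.55 in knockouts, so the direction turned between the slides (-0.15 numbered, 0.35 lettered). The difference between the series, 0.50 ± 0.16 (SE), had an unadjusted p of 0.00798 and an adjusted p of 0.985 (limma). The other Zic2 probe, A_55_P1962523, gave -0.01 on the numbered slide and 0.30 on the lettered slide. Both averages, 0.10 and 0.15, were not called (adjusted p = 0.543 and 0.485, limma).

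Neurod2, the helix-loop-helix relative of Neurod1 in maturing granule neurons (A_51_P379341), also turned between the series. It read 3.73 and 3.65 in numbered controls against 3.49 and 3.55 in knockouts, and 3.45 and 3.57 in lettered controls against 3.74 and 3.42 in knockouts. The average log2 change was -0.05 ± 0.08 (SE; adjusted p = 0.820, limma), and its sign turned under quantile normalization (0.01). Etv1, the activity-dependent ETS factor (A_66_P135185), was lower in the mean of both series (-0.10 numbered, -0.28 lettered), but control and knockout arrays overlapped on slide 1, at 5.85 and 5.55 against 5.70 and 5.50. Its average of -0.19 ± 0.11 (SE) was not called (adjusted p = 0.346, limma), ran from -0.27 to -0.11 as each array was left out and was -0.06 under quantile normalization.

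The homeobox genes gave no call. The brightest Pax6 probe, A_51_P489935, read 1.94 and 2.03 in numbered controls, 1.98 and 1.88 in numbered knockouts, 1.62 and 1.80 in lettered controls and 1.78 and 1.66 in lettered knockouts. The arrays of the genotypes overlapped on both slides, with a log2 change of -0.02 and a 95% interval from -0.18 to 0.14. The probes A_52_P565559 and A_55_P2719489 gave 0.07 and -0.15. The dim probe A_52_P469306 stood apart at 0.94 ± 0.29 (SE; adjusted p = 0.0815, limma), with 1 array far above the rest: it read -3.19 on the array with the label Derlin-1 KO a of the lettered series and between -5.91 and -4.15 on the other 23 arrays. Without the array with the label Derlin-1 KO b of that series, which leaves the high array alone in its group, the change was 1.39 (adjusted p = 0.00400, limma), with the spread taken from the other groups. Without the high array itself the change was 0.49 and was not called (adjusted p = 0.269, limma). Barhl1, which granule neurons need to migrate and survive, gave -0.06 at A_51_P183971 and -0.02 at A_52_P65084, with overlapping groups on every slide in this comparison.

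**Figure D2:**
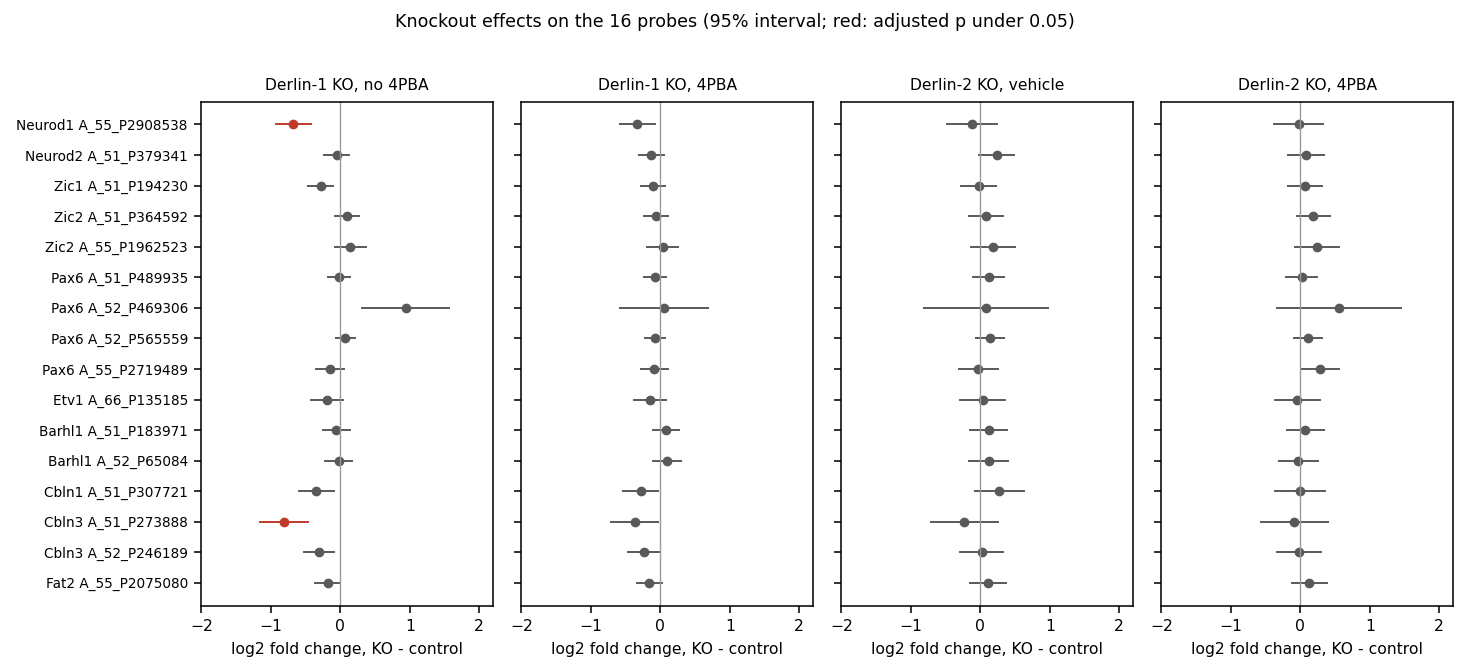
Log2 fold change of knockout over control for each of the 16 probes with its 95% interval, in 4 panels for the Derlin-1 and Derlin-2 knockouts without and with 4PBA; red marks an adjusted p under 0.05. Only Neurod1 at -0.68 and the Cbln3 probe A_51_P273888 at -0.81 are red, both in the Derlin-1 panel without 4PBA.

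Under 4PBA the Derlin-1 knockout gave no member call, and the genes that were lowest without the drug were again the lowest. Of the 16 probes 0 were called, against 0.063% of all probes, and 4 had an unadjusted p under 0.05 (9.82% of all probes did), all lower: Neurod1, Cbln1 and both Cbln3 probes. Neurod1 read 6.03 and 5.96 in numbered 4PBA controls and 5.69 and 5.53 in numbered 4PBA knockouts. In the lettered series it read 5.15 and 4.86 in controls, 4.45 on the array with the label Derlin-1 KO 4PBA a and 5.01 on the array with the label Derlin-1 KO 4PBA b. The last array thus lay among its controls. The log2 change of Neurod1 was -0.33 ± 0.12 (SE; adjusted p = 0.369, limma). The changes were -0.37 and -0.24 at the Cbln3 probes, -0.28 at Cbln1, -0.11 at Zic1 and -0.16 at Fat2.

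A call in this comparison turned on the array with the label Derlin-1 KO 4PBA b. It held the higher level of its group for Zic1 (6.73 against 6.36), Cbln1 (6.56 against 6.13), Fat2 (4.51 against 4.26), Etv1 (5.86 against 5.38) and both Cbln3 probes (1.15 against 0.43 at A_51_P273888 and 0.98 against 0.49 at A_52_P246189). The summed level of microglial markers was 15.37 there, just below its slide's controls (15.51 to 20.22), and 28.63 to 33.9 on the other 3 Derlin-1 KO 4PBA arrays. This array was doubted because its levels were like those of controls, so leaving it out by itself favours a larger knockout effect. Its group then holds 1 array. Whether it came from a knockout was not tested. Without both doubted arrays Neurod1 changed by -0.47 ± 0.11 (SE) and was called (adjusted p = 0.0429, limma), as 1 of 16 member probes against 2.46% of all probes. The Cbln3 probes then stood at -0.55 and -0.36 (adjusted p = 0.0728 for each, limma) and Cbln1 at -0.39 (adjusted p = 0.0818). Zic1 (-0.20), Etv1 (-0.27) and Fat2 (-0.22) were also lower than with all arrays, and none of these was called. Without the array with the label Derlin-1 KO 4PBA a instead, the changes were smaller, at -0.19 for Neurod1, -0.19 and -0.12 for the Cbln3 probes and -0.17 for Cbln1 (adjusted p = 0.9997 for each, limma). No group pair of any member was separated in both series under 4PBA with all arrays, beside 3.28% of probes with the knockout lower and 2.43% with it higher.

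No member was called for 4PBA itself. In Derlin-1 controls 0 of 16 probes were called against 0.0341% of all probes, and 0 had an unadjusted p under 0.05, against 2.25%. In Derlin-1 knockouts 0 were called against 0.0525%, and 4 had an unadjusted p under 0.05, against 5.37%: Neurod1 (0.26 ± 0.12, SE) and Cbln3 at A_51_P273888 (0.35 ± 0.16) were higher with 4PBA, and Zic2 at A_51_P364592 (-0.17 ± 0.08) and Pax6 at A_52_P469306 (-0.77 ± 0.29) lower. Without both doubted arrays the change of Neurod1 was 0.12 and that of Cbln3 0.17, and without the array with the label Derlin-1 KO 4PBA a they were 0.40 and 0.53, so the size of both rested on the lettered 4PBA knockouts. For the dim Pax6 probe A_52_P469306 the change was -1.22 (adjusted p = 0.0224, limma) without the array with the label Derlin-1 KO b of the lettered series, a fit in which the array at -3.19 alone stood for that group and its spread was taken from the other groups. Without that high array it was -0.32 and was not called. The test of whether 4PBA acted differently in knockouts and controls called 0 of 16 member probes against 0.0315% of all probes, with 0 at an unadjusted p under 0.05, against 2.27%. For Neurod1 that difference was 0.35, with a 95% interval from -0.01 to 0.70, and without both doubted arrays it was 0.21 ± 0.15 (SE; unadjusted p = 0.178, limma).

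The Derlin-2 knockout gave no member call. With vehicle 0 of 16 probes were called against 0.121% of all probes, 0 had an unadjusted p under 0.05 (against 6.96%) and 12 lay above 0, with a median log2 change of 0.10. Neurod1 read 6.00 and 6.08 in vehicle controls and 5.89 and 5.95 in vehicle knockouts, a change of -0.12 with a 95% interval from -0.48 to 0.23. The Cbln3 probe A_51_P273888 read 1.0 and 1.12 in controls and 0.97 and 0.68 in knockouts (-0.23), and A_52_P246189 0.02 higher in knockouts. Cbln1 read 7.12 and 7.19 in controls and 7.23 and 7.63 in knockouts, higher by 0.28 ± 0.17 (SE; adjusted p = 0.778, limma). Without the array with the label Derlin-2 KO vehicle 1 and the other doubted array, Cbln1 stood at 0.47 ± 0.16 (SE; adjusted p = 0.347, limma), Neurod1 at -0.09 and A_51_P273888 at -0.38. Of the 16 probes 10 then lay above 0, with a median of 0.06, the sign of A_52_P246189 turned (-0.01), and 0 probes were called against 0.42% of all probes. Control and knockout arrays did not overlap for 8 probes with the knockout higher (22.8% of all probes) and for 2 with it lower (23.6%), which were Neurod1 and Cbln3 at A_51_P273888. The smallest adjusted p of the 16 was that of Neurod2, at 3.78 and 3.67 in controls and 3.92 and 3.99 in knockouts, a change of 0.23 (adjusted p = 0.737, limma).

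With 4PBA the Derlin-2 line again gave 0 calls among the members, against 0.171% of all probes, and 1 unadjusted p under 0.05, against 4.98%, for Pax6 at A_55_P2719489 (0.28 ± 0.13, SE). Neurod1 read 6.09 and 5.82 in controls and 5.87 and 5.99 in knockouts, with full overlap. For 4PBA itself 0 members were called in Derlin-2 controls (against 0.176%) and 0 in Derlin-2 knockouts (against 0.155%). The unadjusted p lay under 0.05 for Pax6 at A_52_P565559, 0.23 higher in controls and 0.20 higher in knockouts, and for Cbln1 in knockouts, that is for 1 and 2 of 16 probes against 6.32% and 7.67% of all. Cbln1 read 7.23 and 7.63 with vehicle and 6.96 and 7.05 with 4PBA in those knockouts, a difference of -0.42 ± 0.17 (SE) that was not called (adjusted p = 0.540, limma). Without both doubted arrays it was -0.62 (adjusted p = 0.194), and without the array with the label Derlin-2 KO vehicle 2 it was -0.22 (adjusted p = 0.986).

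The knockout effects of the lines without 4PBA were set against each other in the same fit. Of the 16 probes 14 had the lower change in the Derlin-1 line, with a median difference of -0.20, and 0 were called against 0.0682% of all probes. The unadjusted p lay under 0.05 for 11% of all probes and 2 member probes, Cbln1 (-0.62 ± 0.20, SE; adjusted p = 0.289, limma) and Neurod1 (-0.56 ± 0.20, SE; adjusted p = 0.337, limma). Without both doubted arrays these were -0.82 (adjusted p = 0.0735) and -0.59 (adjusted p = 0.226). Neurod1 and the Cbln3 probe A_51_P273888 were thus called in the Derlin-1 line without 4PBA and not in the Derlin-2 line, and the test of the difference did not pass. The difference of the knockout effect between the lettered and numbered series called 0 of 16 against 0.0131% of all probes, with 2 unadjusted p under 0.05 (against 3.29%), for Zic2 at A_51_P364592 and Pax6 at A_52_P469306.

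**Figure D3:**
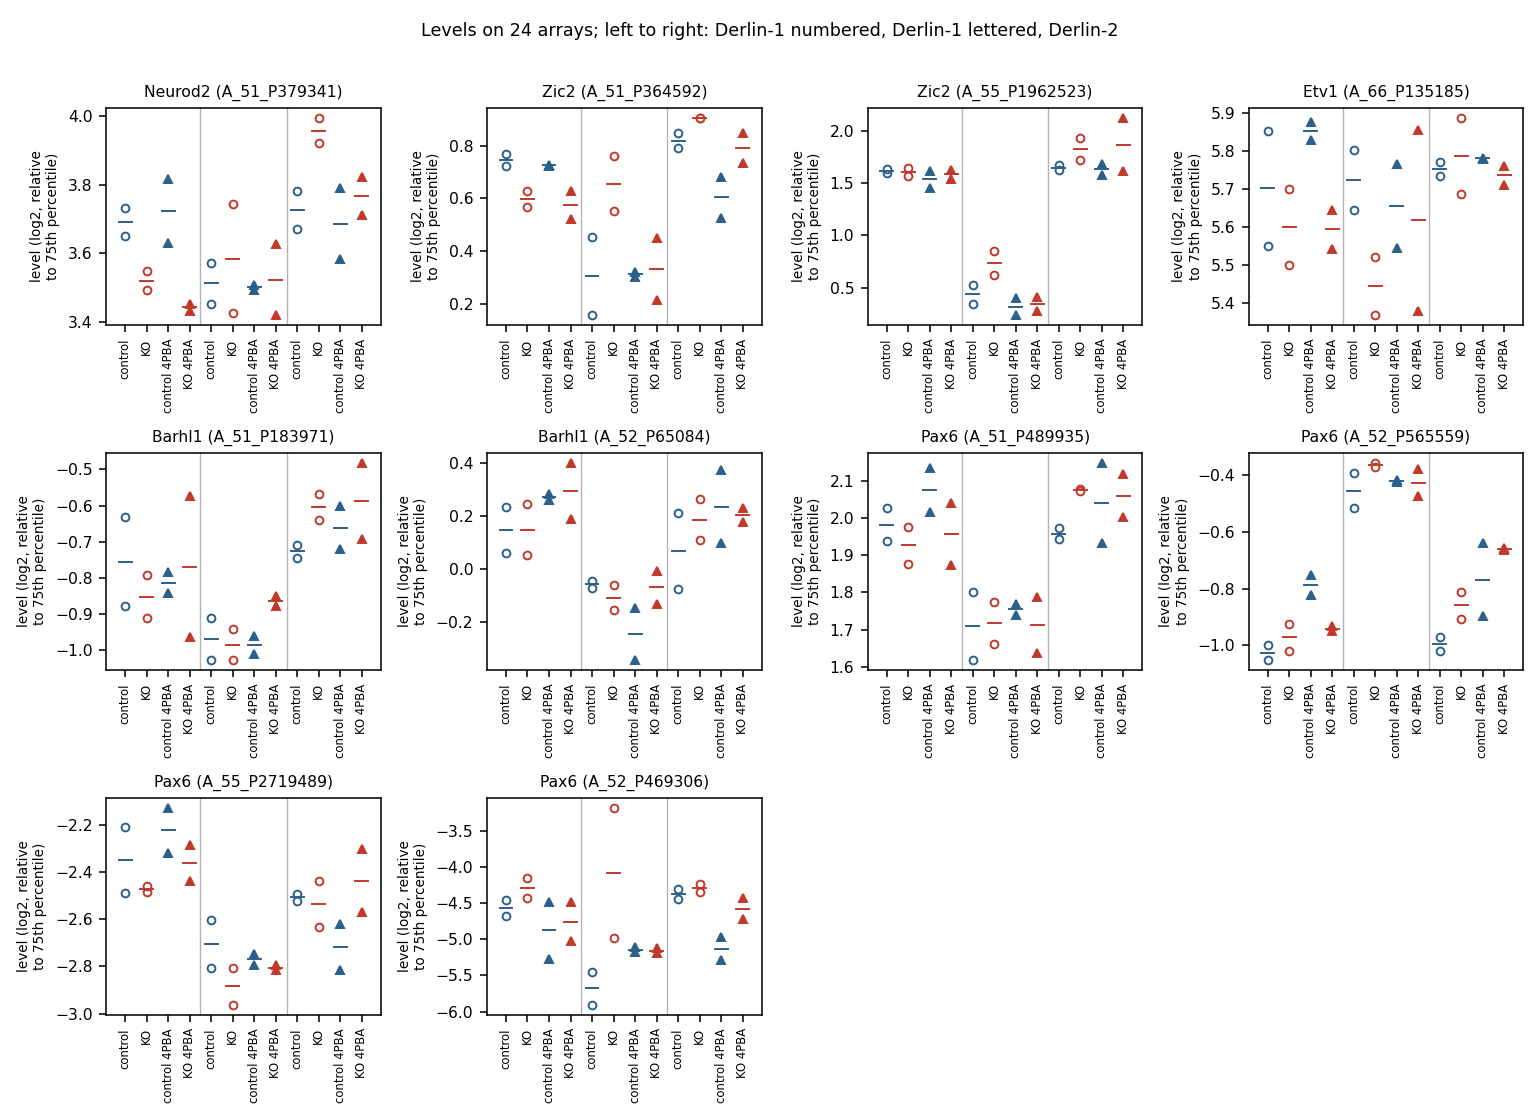
Level of the other 10 probes (log2 intensity minus the array's 75th percentile, vertical axes with their own scales) on each of the 24 arrays; blue marks controls, red knockouts, open circles arrays without 4PBA, filled triangles arrays with 4PBA and bars the mean of 2 arrays. The Zic2 probe A_55_P1962523 lies at 1.45 or above on the numbered and Derlin-2 slides and at 0.85 or below on the lettered slide.

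The order of the groups was read within each slide, since levels also differed between slides. On the numbered slide Neurod1 ran from vehicle controls (mean 6.07) over 4PBA controls (6.00) to 4PBA knockouts (5.61) and vehicle knockouts (5.50); the controls lay clear of the knockouts, and the knockout groups overlapped each other. On the lettered slide the order was the same (5.10, 5.0, 4.73 and 4.32), with overlap between each group and the next except between the 4PBA knockouts, which include the doubted array, and the knockouts without 4PBA. On the Derlin-2 slide the means ran from 6.04 to 5.92 and every group overlapped its neighbour. The Cbln3 probe A_51_P273888 had the same order as Neurod1 on all 3 slides. Cbln1 had vehicle controls highest (7.15) and 4PBA knockouts lowest (6.58) on the numbered slide, and vehicle knockouts highest (7.43) on the Derlin-2 slide.

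Several members stood at another level on the lettered slide. The 4 controls of Neurod1 averaged 6.03 on the numbered slide, 6.00 on the Derlin-2 slide and 5.05 on the lettered slide, and those of the Zic2 probe A_55_P1962523 1.58, 1.64 and 0.38. The numbered minus lettered difference of control means was 0.98 for Neurod1 and 1.20 for that Zic2 probe, while the central 90% of all probes ran from -0.86 to 1.03. Zic1 (0.46), Cbln1 (0.43) and Fat2 (0.43) differed the same way, and the Cbln3 probes the other way (-0.47 and -0.16). Series, slide and scan day cannot be told apart here. The Derlin-2 and numbered controls differed by at most 0.33 in size at any member probe.

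Relative to their slide means, members varied together to unequal degrees, given as a description over 24 arrays that share slides and groups. Neurod1 correlated with the Cbln3 probes at 0.94 (A_51_P273888) and 0.84 (A_52_P246189), with Zic1 at 0.73, with Etv1 at 0.65 and with Cbln1 and Fat2 at 0.63 each. It ran against Zic2 at A_55_P1962523 (-0.31) and the dim Pax6 probe (-0.58). Among the brightest probes of the 10 genes, 35 of the 45 pairs correlated above 0, with a median of 0.37. Probes of 1 gene correlated at 0.87 for Cbln3, 0.71 for Zic2 and 0.46 for Barhl1, and the 6 pairs of Pax6 probes between -0.15 and 0.64. The genes most like the mean of the 10, among 14256 ranked, were Atxn1 (0.92), Diras2 (0.91), Pxylp1 (0.90), Sipa1l3 (0.90) and 6430571L13Rik (0.90). Most like Neurod1 alone were Asgr1 (0.97), Gap43 (0.96), Plekha5 (0.95), Gria4 (0.95) and Gpr22 (0.95), a ranking added after the values were seen. In the Derlin-1 knockout without 4PBA those 5 changed by -1.38, -1.0, -1.31, -0.52 and -1.12, a direction that follows from choosing them for their likeness to Neurod1 over these arrays. The 5 most like the mean of the members changed by -0.23, -0.20, -0.43, -0.39 and -0.40, of which Atxn1 (adjusted p = 0.187, limma) and Diras2 (adjusted p = 0.189, limma) were not called. The direction of these 5 likewise follows from choosing them for their likeness to the members over these arrays.

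Other genes of granule neurons gave a mixed picture in the Derlin-1 knockout without 4PBA, each read by its brightest probe. Of 11 synaptic, channel and other granule genes 10 were testable, with a median of -0.17 beside 0.02 over all probes. At an unadjusted p under 0.05, 5 were lower and 1 higher, against 20.3% of all probes in either direction. Called lower were 2, against 2.55% of all probes. They were Gabra6, the granule-specific GABA-A receptor subunit (-0.76 ± 0.15, SE; adjusted p = 0.0119), and Kcnd2, a potassium channel of granule cell bodies and dendrites (-0.43 ± 0.12, SE; adjusted p = 0.0497). The Kcnd2 call held in 7 of 22 alternative fits and that of Gabra6 in 18. Grin2c, an NMDA receptor subunit of mature granule neurons, stood at -0.33 (adjusted p = 0.0601), Gabrd at -0.23, the vesicular glutamate transporter Slc17a7 at -0.05 and the neuronal marker Rbfox3 at -0.16, none called. Calb2, which encodes the calcium-binding protein calretinin, was the highest of the list at 0.34 ± 0.11 (SE; adjusted p = 0.0890, limma) and stood at 0.47 at its other probe (adjusted p = 0.0540). Without both doubted arrays the median of this list was -0.17 in the Derlin-1 knockout without 4PBA and -0.20 under 4PBA. That fit leaves 1 array in the lettered 4PBA knockout group. Of 5 factors of granule maturation, the Nfi and Mef2 genes, 0 were called, with a median of -0.08. An unadjusted p under 0.05 (limma) was held by 1 of them (Nfib, 0.20), against 20.3% of all probes.

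Genes of granule cell precursors gave 1 call in each direction, against 2.53% of all probes higher and 2.55% lower, with a median of -0.04. Of 10, 9 were testable, and Atoh1, the defining factor of the precursors, was never above background in a whole group. Ccnd2, a cyclin of dividing precursors, rose by 1.12 ± 0.25 (SE; adjusted p = 0.0246, limma), and Mycn, a growth factor target that drives their division, fell by 0.52 ± 0.13 (SE; adjusted p = 0.0320, limma). The Ccnd2 call held in 14 of 22 alternative fits and that of Mycn in 13, and each was lost with any of 5 single arrays left out. The summed level of the list was 9.77 to 11.09 on the 4 knockout arrays without 4PBA and 7.28 to 9.45 on their controls, without overlap. This linear sum gives bright genes the most weight. Ccnd2 was the only gene of the list called higher, and its part in the sum was not tested. The proliferation genes Mki67 (-0.10 ± 0.35, SE) and Top2a (-0.34 ± 0.47, SE) were not called. Of 9 partners of the cerebellins, Nrxn2, a presynaptic neurexin, fell by 0.27 (adjusted p = 0.0348, called in 9 of 22 alternative fits). Nrxn3, another neurexin, stood at -0.19 and was not called. Of 11 paralogs of the members 10 were testable and 0 were called (limma), with 3 at an unadjusted p under 0.05, against 20.3% of all probes.

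Markers of other cell types were read in the same fit and comparison, in which 5.09% of all probes were called. An unadjusted p under 0.05 was held by 20.3% of all probes. Of 9 testable interneuron genes 4 were called lower, against 2.55% of all probes, and 3 lay above 0. The 4 were Tfap2b at -0.55, Kit at -0.54, Prkcd at -0.45 and Gad1 at -0.22, the last called in only 7 of 22 alternative fits. The summed level of all 10 interneuron genes on the list was 179 to 194.4 on the 4 knockout arrays without 4PBA and 199.4 to 244.7 on the controls. Among 9 Bergmann glia and astrocyte genes Gfap, the filament of reactive astrocytes, rose by 1.25 ± 0.18 (SE; adjusted p = 0.00497, limma) and the others were not called. Of 10 Purkinje, 9 oligodendrocyte, 4 unipolar brush cell, 5 endothelial and 5 choroid plexus genes 0 were called (limma). Their medians were -0.01, -0.10, -0.03, 0.08 and -0.83. Summed choroid plexus levels differed widely within a group, at 12.27 and 241 in numbered vehicle knockouts and 2.75 and 113.3 in lettered knockouts. The unadjusted p (limma) lay under 0.05 for 2 Purkinje and 2 oligodendrocyte genes. These counts take the brightest probe of each gene; the oligodendrocyte gene Mbp, which encodes a myelin protein, was called lower at A_52_P604195 (-0.75 ± 0.13, SE; adjusted p = 0.00718, limma) while its brightest probe stood at 0.0054. Microglial genes rose, led by Trem2 (1.77), Aif1 (1.49) and the complement genes C1qa, C1qb and C1qc (1.43 to 1.44). Genes of neurons outside the cerebellum were dim. Of 7 midbrain and hindbrain genes 3 were testable and 0 were called (limma), with 2 at an unadjusted p under 0.05, among them Th, the rate-limiting enzyme of dopamine synthesis (0.75). Their summed level was 3.17 to 4.40 on numbered knockouts against 2.05 to 2.53 on controls, and 3.81 to 7.82 on lettered knockouts against 2.70 to 3.63. Of 6 testable forebrain genes 0 were called (limma) and 1 had an unadjusted p under 0.05: Lhx2, at 2.32 ± 0.77 (SE; adjusted p = 0.0972), which was called without both doubted arrays. Whether these other lists bear on the members' levels was not tested.

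**Figure D4:**
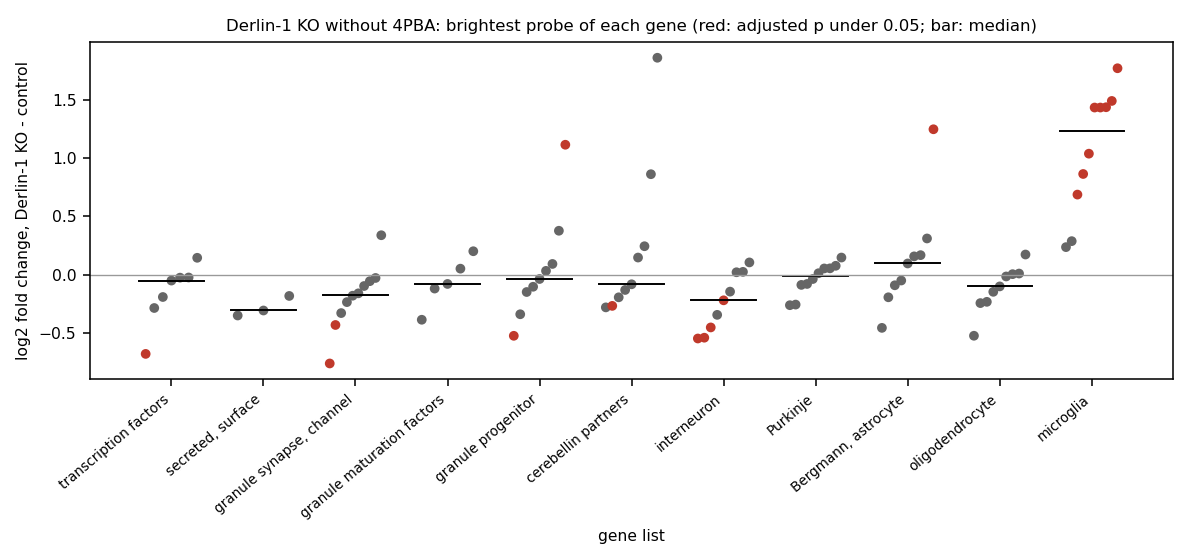
Log2 fold change of Derlin-1 knockout over control without 4PBA for the brightest probe of each gene in 11 lists, with the median of each list as a bar; red marks an adjusted p under 0.05. In the granule lists Neurod1 (-0.68), Gabra6 (-0.76), Kcnd2 (-0.43), Mycn (-0.52) and Ccnd2 (1.12) are red, and the microglial median lies at 1.24.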

How the data were processed

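Total RNA of 24 cerebellum samples was amplified, labelled with Cy3 and hybridised to Agilent arrays, 1 per sample, per the labels' protocols. Spots were read with Agilent Feature Extraction 10.7.1.1, per the submitters' processing notes. The deposited value used was each spot's processed signal, which per the file headers is a linear intensity from which the authors had removed background; no normalization between arrays is recorded. Control spots and spots with outlier flags (52 to 637 per array) were left out, repeated spots were averaged in log2, and each array's 75th percentile was subtracted. This scaling sets the same percentile to 0 on each array, so a change common to most probes would not show.

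Gene names came from the probe's transcript accession through the RefSeq table. The 38115 probes well above background on each array of 1 group or more were kept, and all were fitted at once with limma 3.58.1 in R 4.3.3, with 12 group means, 12 residual degrees of freedom and p-values adjusted over all probes. Only 2 arrays a group limit the precision: over all probes the median standard error was 0.14 for a Derlin-1 effect over both series and 0.20 for a Derlin-2 effect. Of 50 simulated probes per size in the Derlin-1 comparison without 4PBA, over 38115 probes, 76% with a log2 change of -1 and 72% with a change of 1 were called. The simulated sizes, 1 and 2 in either direction, exceeded every member change in that comparison. Far fewer probes were changed in the simulation than were called in the data. These rates therefore do not give the power for the members. Groups came from the sample titles. Every member probe is reported; of other lists, called genes were named, up to 6 a list by size, beside a few named after their values were seen, and the 5 genes most like the members. Some genes of the lists are not reported here by name. The members and lists were chosen with earlier results of these data known. Alternatives covered the background correction, the normalization, the filter, the probe choice, the variance model, slides, series, the replicate block, the authors' series table and each array left out. The authors' series table holds the same linear intensity at single-spot probes. Coordinates come from the promoter table (GRCm38.p6), a later build than the mouse build in the file headers, so no position of a probe is given.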

Additional observations from a re-analysis of the deposited data

How the results depend on the processing

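Neurod1 and the Cbln3 probe A_51_P273888 made up the 2 member calls in the Derlin-1 knockout without 4PBA. That count was 1 in a fit of the 2 Derlin-1 slides alone, 0 with either Derlin-1 series alone, where 4 arrays enter each contrast, 4 without both arrays that go against their labels (an alternative added after seeing the data, as was normexp background correction on the median signal), and 1 to 3 as each array was left out. The counts under 4PBA (0) and for the effect of 4PBA in Derlin-1 knockouts (0) ran from 0 to 1 as each array was left out, and the first was 1 without both doubted arrays. The member counts of the other 8 comparisons were 0 under each alternative run. Signs of the members turned in the Derlin-1 knockout without 4PBA for small, uncalled changes: Neurod2 (0.0137 with quantile normalization, 0.0718 lettered alone, -0.13 to 0.0298 leaving out arrays), Pax6 at A_51_P489935 (0.0209, 0.0086 and -0.0685 to 0.0223 likewise), Barhl1 at A_52_P65084 (0.0011 numbered alone, -0.0723 to 0.0232) and A_51_P183971 (-0.12 to 0.0054), and Zic2 (-0.15 and -0.0099 numbered alone). Without both doubted arrays 16 of the 176 member values over the 11 comparisons turned sign, each at most 0.084 in size and 0 of them called (limma). The cause was not tested. Over all probes the counts moved more: 9 to 3343 in the Derlin-1 knockout without 4PBA (1938), 0 to 1079 with 4PBA (24), 8 to 159 (46) and 10 to 210 (65) in the Derlin-2 knockout without and with 4PBA. For 4PBA they ran from 0 to 72 (13) and 0 to 163 (20) in Derlin-1 controls and knockouts, and from 7 to 3950 (67) and 10 to 5518 (59) in Derlin-2 controls and knockouts. They ran from 0 to 316 (26) for the difference between lines, 0 to 39 (12) for the difference of the 4PBA effect and 0 to 43 (5) for that between series. Same-numbered samples did not deviate together throughout (correlations above 0.1 in 3, 2 and 4 of 6 pairs on the 3 slides), so the numbers were not taken to pair samples; with the replicate block the member count stayed at 2 and Neurod1 had an adjusted p of 0.0130 (limma). Normexp on the mean signal was not run, because the files used here give a median signal only.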
